A study of Mus musculus with 9 samples.

Results

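The mucin-type glycosylation enzymes of the mouse sublingual gland were taken here as the protein-coding genes whose symbol begins with Galnt, Gcnt, B3gnt, B3galt, B4galt, St3gal, St6gal, St6galnac, St8sia, Fut or Chst followed by a number, together with C1galt1 and C1galt1c1. This rule found 87 of the 54532 genes counted, with 86 different symbols, because St6galnac2 stands under 2 overlapping gene identifiers. Of the 87 members, 65 had enough reads to be tested and 22 did not. All glands came from WT mice, and RNA was prepared from sections of whole gland. The libraries form 3 groups of 3: glands taken 14 days after 10 Gy of radiation, glands taken 7 days after the same dose, and control glands that received no radiation. The series concerns the regeneration of salivary glands damaged by radiation, and the comparison here asks how the enzymes that build the sugar chains of mucus stood at each time. The labels number the libraries within each group and do not tell whether each came from another animal, and a p-value here covers the spread among the libraries alone, which may be technical.

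Mucins are long proteins that carry dense sugar chains on serine and threonine, and those chains give mucus its gel and its charge. Polypeptide GalNAc-transferases add the first sugar in the Golgi, other enzymes lengthen that sugar into a core 1, core 2, core 3 or core 4 chain, and sialic acid, fucose or sulphate closes the chain. The sublingual gland of the mouse is made mostly of mucous acini, with serous demilunes at their ends, and its main gel-forming mucin is Muc19. The symbol rule is wider than its name. Of the 87 members, 30 have a mucin-type O-glycan as their textbook main product, and the other 57 also or mainly act on N-glycans, glycolipids or proteoglycans, as Fut8 (core fucose of N-glycans), B4galt7 (linker of proteoglycans) and St3gal5 (the ganglioside GM3) do.

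Each library held between 15962399 and 19441239 counts, and 3 counts were worth 0.154 to 0.188 CPM, which are counts after scaling to libraries of the same size. Levels are CPM scaled by the trimmed mean of M values (TMM), and where genes are set against each other they are divided by the length of the exons in kilobases (CPM per kb). Changes are log2 fold changes with their standard error (SE) from edgeR's quasi-likelihood test, and a gene is called where its Benjamini-Hochberg adjusted p over all 15348 genes tested is under 0.05. Every adjusted p below is from that test unless another is named. Of the genes that mark a mucous gland, Muc19 stood at 36582.8, 34604 and 35921.2 CPM at day 14, 30293.2, 33311.6 and 35262.7 CPM at day 7 and 46252.5, 43790.5 and 38306.6 CPM in controls, while Muc5b did not pass 0.396 CPM in any library and Muc5ac had no count. Control library 3 stood apart in the secreted genes Mucl2 and Prol1. Mucl2 read 76404.1 CPM there and from 39.4 to 14194.8 CPM in the other 8 libraries, and Prol1 read 8369.23 CPM there and from 2.74 to 1723.45 CPM in the others. Calls of members that changed without control library 3 are given with their value without it.

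In control glands the abundant members included enzymes that start, extend and sialylate O-glycans. Of those named next, St3gal4, B4galt1, Chst9 and B3galt5 are among the members that also or mainly act on other chains. St3gal1, which puts sialic acid on the galactose of core 1, led with 441 ± 32.4 CPM per kb (mean ± SD, n = 3), and it alone took 43.1 ± 1.71% of the summed CPM of all members. St3gal4, which sialylates longer chains, followed with 304 ± 27.7 CPM per kb, B3gnt6, the core 3 synthase, with 217 ± 15.6, Galnt12, a GalNAc-transferase, with 162 ± 18.1, and B4galt1, the galactosyltransferase of type 2 chains, with 71.5 ± 3.63. Each of these 5 was separate from the next in the order, in that their control libraries did not overlap. Galnt10, at 58.9 ± 5.24 CPM per kb, Galnt7, at 48 ± 7.99, Galnt4, at 45.1 ± 8.6, Chst9, at 35 ± 4.7, and B3galt5, at 33.9 ± 3.54, formed a run in which each overlapped its neighbour. The core 1 synthase C1galt1 lay lower, at 12.9 CPM per kb, and its chaperone C1galt1c1 at 24 CPM per kb. In all, 4 members reached 100 CPM per kb in controls, 20 reached 10 and 38 reached 1. Galnt4 lies within Poc1b on the same strand, so reads could be split between them and its level is uncertain.

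**Figure D1:**
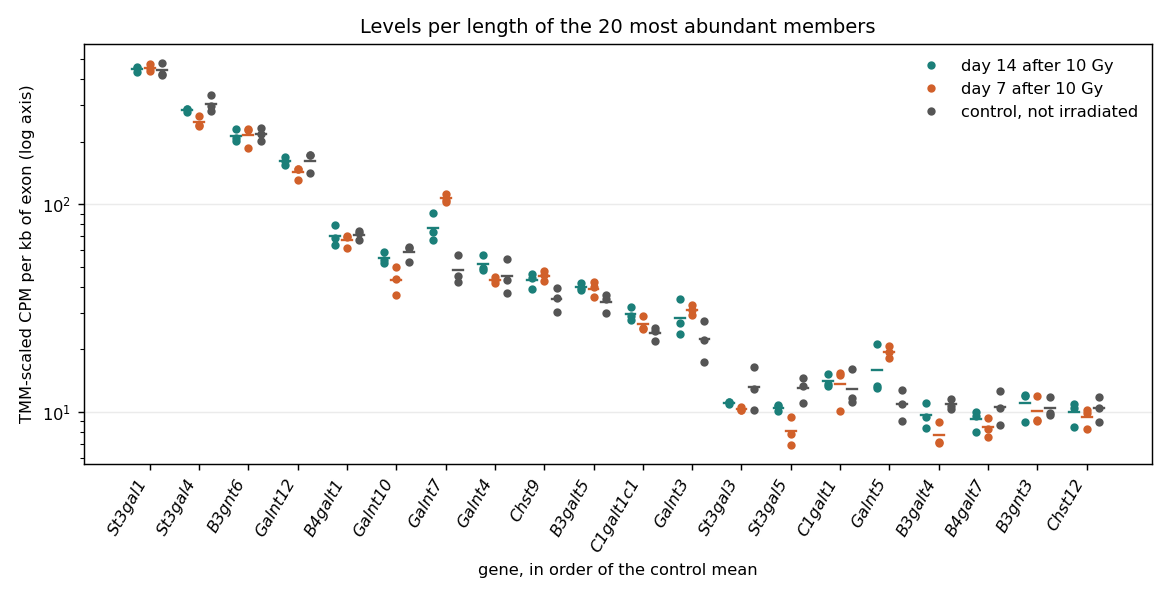
Levels of the 20 most abundant members in CPM per kb of exon on a log axis, with 1 point per library and a line at each group mean, ordered by the control mean. St3gal1, St3gal4, B3gnt6 and Galnt12 lie above the others in controls, and Galnt7 shows the widest gap between day 7 and control.

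Of the 10 most abundant members per kb, St3gal4, Galnt10, Galnt7 and Chst9 were called at day 7, Galnt7 also at day 14, and the other 6 at neither time. St3gal1 had 3107, 3131 and 2956 CPM at day 14, 2993, 3099 and 3230 CPM at day 7 and 3277, 2918 and 2872 CPM in controls, and the 3 groups overlapped (log2 fold change 0.04 ± 0.088 SE at day 7 against control, adjusted p = 0.77). Its share of the summed CPM of members was 42.1 ± 1.01% at day 14, 43.2 ± 0.181% at day 7 and 43.1 ± 1.71% in controls. B3gnt6 had 494, 545 and 480 CPM at day 14, 443, 546 and 540 CPM at day 7 and 517, 551 and 477 CPM in controls, and its groups overlapped as well (-0.02 ± 0.098, adjusted p = 0.922). B4galt1 had 290, 334 and 270 CPM at day 14, 262, 295 and 299 CPM at day 7 and 285, 314 and 308 CPM in controls (-0.09 ± 0.095, adjusted p = 0.537). The steps served by these 3 enzymes are sialylation of core 1, core 3 synthesis and galactose addition. Galnt12 had 370, 386 and 352 CPM at day 14, 301, 339 and 337 CPM at day 7 and 397, 394 and 323 CPM in controls, and the day 7 libraries overlapped control library 3 alone (-0.19 ± 0.096, adjusted p = 0.143). Without control library 3, Galnt12 passed the test with a log2 fold change of -0.30 at day 7. B3galt5, which makes type 1 chains, had 256, 243 and 238 CPM at day 14, 245, 260 and 220 CPM at day 7 and 216, 226 and 184 CPM in controls (0.21 ± 0.095 at day 7, adjusted p = 0.102). Summed over all 87 members, the level was 7279 ± 308.6 CPM at day 14, 7193 ± 265 CPM at day 7 and 7012 ± 244.1 CPM in controls.

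At day 7, 8 of the 65 tested members were called higher than control and 6 lower, which is 21.5% of them, where 30.6% of all genes tested were called in that comparison (15.8% higher and 14.8% lower). The members' median log2 fold change was -0.003, against 0.021 over all genes tested. The libraries of the 2 groups did not overlap for 7 members that lay wholly above control and 8 wholly below, where 22.2% and 21.7% of all genes did so. In this fit the share of members called was thus below that of all genes, and the calls concern single enzymes. The difference in share was not tested. The shares lay closer with no filter on low counts, at 16.9% of members and 17.1% of all genes. In whole glands, fewer cells of a type and less RNA per cell cannot be told apart. With a correction for exon length and GC content the members were 7 higher and 6 lower (20% called). All genes were then 1175 higher and 2155 lower (21.7% called), beside 2419 higher and 2273 lower without it. The count of 8 higher came to 4 without control library 1, 5 without control library 2 and 5 without day 7 library 2. The count of 6 lower came to 2 without library 1 or library 2 of day 7. The share of all genes called fell in these fits too. It was 20.6% without control library 1, 21.8% without control library 2, 19.7% without day 7 library 1 and 22.4% without day 7 library 2. The members' shares were 11.9%, 16.4%, 12.1% and 10.4% in the same order. The calls of Galnt7, Galnt5, Galnt10, St3gal5 and St8sia6 held whichever library was left out.

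**Figure D2:**
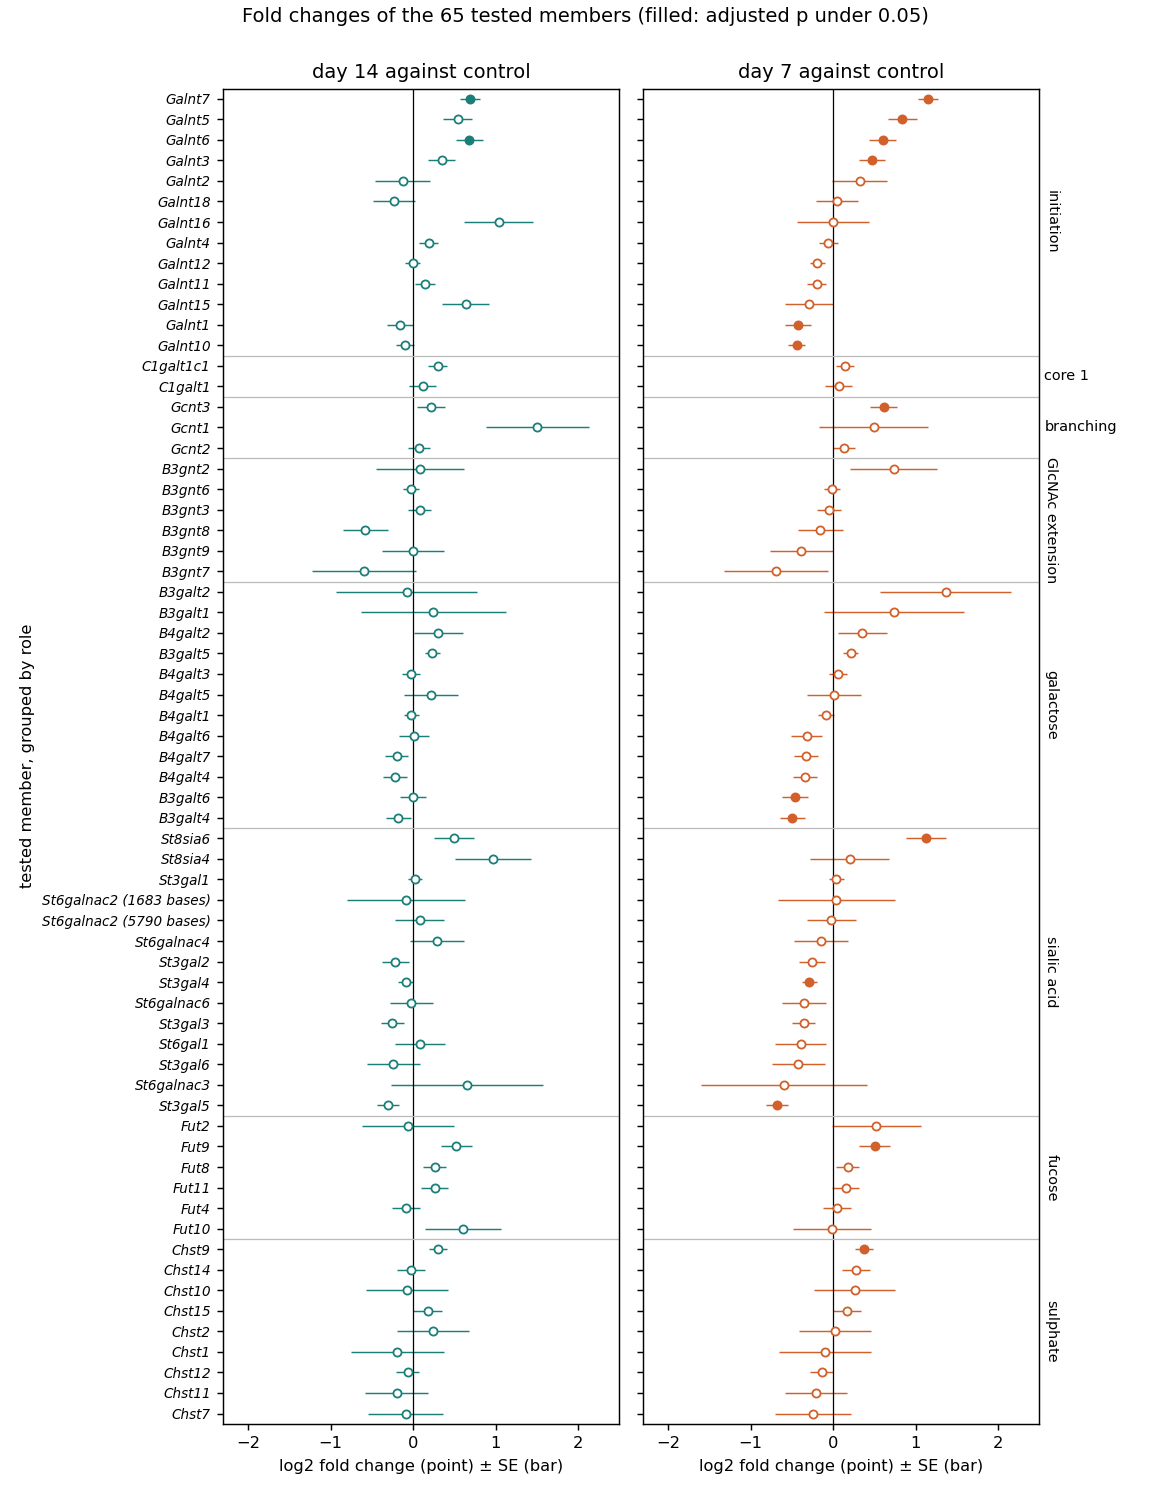
Log2 fold changes of the 65 tested members at day 14 against control (left) and day 7 against control (right), as points with bars of 1 SE, grouped by role and with filled points where the adjusted p was under 0.05. Filled points number 2 at day 14 and 14 at day 7, and the initiation group holds 6 of the 14.

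The first step of the pathway, the attachment of GalNAc, held 6 of the 14 calls at day 7. Of 13 GalNAc-transferases tested, 4 were higher and 2 lower at day 7 (30.8% and 15.4%). Counts of this and the following steps at day 7 stand beside 15.8% higher and 14.8% lower among all genes tested. Galnt7 (chr8:57523828-57653032, minus strand, GRCm38), a GalNAc-transferase that prefers peptides already bearing a GalNAc, had 352, 479 and 385 CPM at day 14, 586, 552 and 540 CPM at day 7 and 221, 236 and 300 CPM in controls. Every day 7 library lay above every day 14 library, and every day 14 library above every control. It was 2.22-fold higher at day 7 than in controls (log2 fold change 1.15 ± 0.122 SE, adjusted p = 1.17e-05), and the estimate stayed between 1.06 and 1.27 whichever library was left out. With the length and GC correction the estimate was smaller, at 0.86 (adjusted p = 6.98e-06). Galnt5, which starts chains on bare peptide, had 58.2, 94.4 and 59.5 CPM at day 14, 86.6, 92.5 and 81.4 CPM at day 7 and 40.5, 48.5 and 56.7 CPM in controls. All 3 day 7 libraries exceeded all controls, and the gene was 1.79-fold higher at day 7 (0.84 ± 0.174, adjusted p = 0.00309).

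The promoters of the GalNAc-transferases that were called higher at day 7 are shown because these genes were higher in the same comparison. They are the 250 bases before the RefSeq transcription start on GRCm38.p6, 5′ to 3′ on the strand of the gene, with capitals marking CCGGAT (read on the other strand as ATCCGG), a sequence preferred by the ETS factor SPDEF of mucous cells, and CCACG (read on the other strand as CGTGG), a part of the ER stress element.
Galnt7 promoter, chr8:57653056-57653305 (minus strand): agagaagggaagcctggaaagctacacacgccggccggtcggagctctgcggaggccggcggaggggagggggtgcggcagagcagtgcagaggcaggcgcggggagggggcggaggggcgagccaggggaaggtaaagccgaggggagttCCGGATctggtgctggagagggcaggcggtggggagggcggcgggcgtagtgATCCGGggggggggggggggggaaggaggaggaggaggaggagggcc
Galnt5 promoter, chr2:57997905-57998154 (plus strand): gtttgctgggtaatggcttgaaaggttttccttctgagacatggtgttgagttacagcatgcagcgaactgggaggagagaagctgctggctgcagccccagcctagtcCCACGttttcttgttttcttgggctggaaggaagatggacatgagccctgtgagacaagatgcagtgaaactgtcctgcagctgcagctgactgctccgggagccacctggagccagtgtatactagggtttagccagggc
Galnt6 promoter, chr15:100729377-100729626 (minus strand): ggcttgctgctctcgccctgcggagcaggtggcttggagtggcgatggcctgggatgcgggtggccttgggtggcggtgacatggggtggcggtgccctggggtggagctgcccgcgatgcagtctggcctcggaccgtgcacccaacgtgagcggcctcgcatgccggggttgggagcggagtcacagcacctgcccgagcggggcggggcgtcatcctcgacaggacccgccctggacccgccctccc
Galnt3 promoter, chr2:66124794-66125043 (minus strand): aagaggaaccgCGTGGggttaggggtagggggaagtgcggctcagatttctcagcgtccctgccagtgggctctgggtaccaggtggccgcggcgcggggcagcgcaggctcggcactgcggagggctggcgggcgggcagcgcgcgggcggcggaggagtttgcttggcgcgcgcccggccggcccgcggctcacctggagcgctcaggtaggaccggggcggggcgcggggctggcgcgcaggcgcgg
The Galnt7 window held CCGGAT on each strand once, in a stretch of 73.6% G and C. Over 32851 promoter windows of the same length, 4.94% held CCGGAT on either strand, and of 86 windows of members, with 65 member symbols matched, 5 did (5.81%). The Galnt5 and Galnt3 windows each held CCACG once, as did 28.3% of all windows and 37.2% of members' windows. The letters of neither motif stand in the Galnt6 window shown, nor in that before its other start. CACGTG, the E-box, and CATATG, a sequence bound by BHLHA15, were also searched on both strands and stand in 6.02% and 3.46% of all windows and in 6.98% and 1.16% of members' windows, with none in these 4. Motifs other than these were not searched, and a match is a run of letters only.

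Galnt6 and Galnt3, close relatives that start chains on bare peptide, were called higher at day 7 too, with smaller estimates. Galnt6 had 33.6, 59.4 and 56.3 CPM at day 14, 43.4, 48.9 and 49.6 CPM at day 7 and 33.1, 30.8 and 29.6 CPM in controls. The day 7 libraries all lay above the controls (0.60 ± 0.164, adjusted p = 0.0118), and the call was lost narrowly without control library 2 or control library 3 (adjusted p 0.0506 to 0.051). Galnt3 had 104, 152 and 117 CPM at day 14, 128, 135 and 143 CPM at day 7 and 76.4, 97.3 and 120 CPM in controls. Its day 7 libraries lay above the controls by a small margin (0.47 ± 0.158, adjusted p = 0.0395), and its call was lost without control library 1 or 2, without any 1 of the 3 day 7 libraries or without day 14 library 3 (adjusted p 0.0551 to 0.119), and after a correction for exon length and GC content (0.29, adjusted p = 0.128).

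Galnt10 and Galnt1 fell at day 7. Galnt10, which like Galnt7 acts on peptides already glycosylated, had 323, 350 and 310 CPM at day 14, 217, 259 and 299 CPM at day 7 and 365, 373 and 315 CPM in controls. Every day 7 library was under every control and every day 14 library, and Galnt10 was 1.36-fold lower at day 7 than in controls (-0.44 ± 0.108, adjusted p = 0.00461). Galnt1, whose loss in mice is known to disturb salivary gland growth, had 15.5, 15.1 and 15.2 CPM at day 14, 11.7, 12.4 and 14 CPM at day 7 and 14, 16.5 and 20.8 CPM in controls. Its day 7 and control libraries overlapped (-0.43 ± 0.158, adjusted p = 0.0466), and the call was lost without control library 2 or 3 or, at day 7, library 1 or 2 or, at day 14, library 1 or 3 (adjusted p 0.057 to 0.196). With the length and GC correction Galnt1 stood at -0.67 (adjusted p = 0.00168). Of the other tested members of this step, Galnt4 had 250, 289 and 245 CPM at day 14, 221, 213 and 228 CPM at day 7 and 191, 221 and 277 CPM in controls, which overlapped. Galnt2, Galnt11, Galnt15, Galnt16 and Galnt18 were not called, with log2 fold changes from -0.30 (Galnt15) to 0.32 (Galnt2) at day 7. Galnt11 was called lower at day 7 with the length and GC correction (-0.47, adjusted p = 0.00658).

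Among the GalNAc-transferase transcripts, Galnt7 held a larger share at day 7 than in any library of the other groups. Galnt7 made up 17.25, 19.88 and 18.66% of the summed CPM per kb of the 17 GalNAc-transferases at day 14, 28.44, 25.47 and 24.61% at day 7 and 11.69, 11.96 and 15.65% in controls. Galnt12 held 39.2 ± 2.45% at day 14, 34.9 ± 1.25% at day 7 and 44.3 ± 4.93% in controls, and Galnt10 held 13.3 ± 0.584% at day 14, 10.6 ± 1.35% at day 7 and 16.1 ± 1.37% in controls. The ratio of Galnt7 to Galnt10, which share a preference for glycosylated peptides, was 1.4 ± 0.159 at day 14, 2.51 ± 0.513 at day 7 and 0.828 ± 0.218 in controls. This ratio was chosen after its values were seen and was not tested. The 17 together summed to 413 ± 39.4 CPM per kb at day 14, 408 ± 13.5 at day 7 and 366 ± 8.11 in controls.

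**Figure D3:**
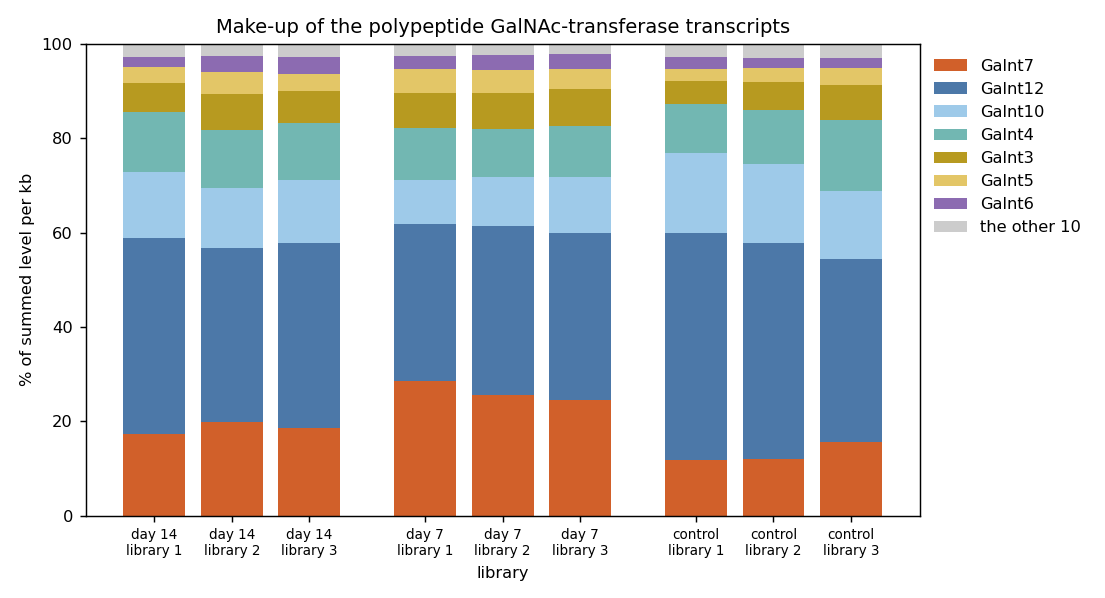
Share of each GalNAc-transferase in the summed CPM per kb of the 17 GalNAc-transferases, as a stacked bar for each library. The Galnt7 share lies between 24.61 and 28.44% in the day 7 bars, between 17.25 and 19.88% in the day 14 bars and between 11.69 and 15.65% in the control bars.

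Core 1 synthesis was not called in either of its parts. C1galt1, the core 1 synthase, averaged 85.5 CPM at day 14, 82.6 at day 7 and 78.9 in controls (0.07 at day 7, adjusted p = 0.796), and C1galt1c1, the chaperone it needs, averaged 42.7 CPM at day 14, 38.4 at day 7 and 34.8 in controls (0.14 at day 7, adjusted p = 0.363). With the length and GC correction C1galt1 was called lower at day 7 (-0.34). At the branching step 1 of 3 tested members was called higher at day 7 (33.3%). Gcnt3, which makes the core 2 and core 4 branches of secreted mucins, had 12.2, 13.5 and 12 CPM at day 14, 14.8, 18.2 and 16.5 CPM at day 7 and 9.45, 13.5 and 9.5 CPM in controls. All day 7 libraries lay above all others, and Gcnt3 was 1.53-fold higher at day 7 than in controls (0.61 ± 0.166, adjusted p = 0.00949), though without control library 1 or, at day 7, library 2 it stood just past the threshold (adjusted p 0.0501 to 0.0531). Gcnt2, which branches the I antigen, averaged 25.6 CPM at day 14, 26.7 at day 7 and 24.4 in controls (0.13, adjusted p = 0.501). Gcnt1, the core 2 enzyme of many tissues, averaged 1.21 CPM at day 14, 0.596 at day 7 and 0.417 in controls and was not called (adjusted p = 0.61 at day 7).

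At the step that adds GlcNAc to growing chains, 6 of 8 members were tested and none was called by edgeR, DESeq2 or limma-voom at day 7, with 0 at an unadjusted p under 0.05. B3gnt3, which extends core 1, averaged 33.6 CPM at day 14, 30.7 at day 7 and 31.8 in controls (-0.05 at day 7). The others ranged from -0.69 (B3gnt7) to 0.73 (B3gnt2), both with group means between 0.635 and 2.01 CPM. Among galactosyltransferases, 2 of 12 were called lower at day 7 (16.7%, beside 14.8% of all genes), and neither has mucin as its main substrate. B3galt4, which makes the ganglioside GM1, had 17.5, 15 and 13.2 CPM at day 14, 11.3, 11.2 and 14.1 CPM at day 7 and 18.3, 16.9 and 16.3 CPM in controls (-0.49 ± 0.155, adjusted p = 0.0212). B3galt6, which builds the linker of proteoglycans, had 17.3, 17.9 and 13.6 CPM at day 14, 10.6, 11.7 and 13.3 CPM at day 7 and 16, 14.8 and 18 CPM in controls (-0.46 ± 0.157, adjusted p = 0.0333). For both, every day 7 library lay under every control. The call of B3galt4 was lost without control library 1 or, at day 7, library 1 or 2 (adjusted p 0.0707 to 0.0907) and with the length and GC correction (-0.17, adjusted p = 0.474). That of B3galt6 was lost without control library 1 or 3 or, at day 7, library 1 or 2 (adjusted p 0.06 to 0.137) and with the same correction (-0.38, adjusted p = 0.0758). B4galt7, of the same linker, was at -0.33 (adjusted p = 0.0891) and B4galt4 at -0.34 (adjusted p = 0.0836). The remaining uncalled galactosyltransferases ranged from -0.32 (B4galt6) to 1.36 (B3galt2, at most 1.05 CPM on average), and B4galt6, of the glycolipid lactosylceramide, was called lower with the length and GC correction (-0.54).

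Of 14 sialyltransferases tested, 2 were called lower and 1 higher at day 7 (14.3% and 7.14%), beside 14.8% and 15.8% of all genes tested. Of the 14, 10 had a negative log2 fold change (median -0.271), as had 7411 of all 15348 genes tested (median 0.021). St3gal4, next to St3gal1 in abundance, had 844, 815 and 844 CPM at day 14, 698, 707 and 781 CPM at day 7 and 978, 871 and 819 CPM in controls. Its day 7 libraries were the lowest of the 9 (-0.29 ± 0.09, adjusted p = 0.0215), and the call was lost without control library 1 or, at day 7, library 1 or 2 (adjusted p 0.0882 to 0.122) and with the length and GC correction (-0.17, adjusted p = 0.203). The level of St3gal1 over that of St3gal4, per kb, was 1.57 ± 0.072 at day 14, 1.82 ± 0.0534 at day 7 and 1.45 ± 0.0388 in controls, a ratio chosen after its values were seen and not tested. St3gal5, the GM3 synthase of glycolipids, had 27.9, 26.3 and 28.2 CPM at day 14, 18.2, 24.8 and 20.5 CPM at day 7 and 37.9, 34.9 and 29 CPM in controls. The 3 groups were separate, with day 7 lowest and control highest, and St3gal5 was 1.6-fold lower at day 7 than in controls (-0.68 ± 0.136, adjusted p = 0.00106).

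St8sia6, which adds sialic acid to sialic acid and takes O-glycans among its acceptors, was the sialyltransferase called higher. It had 4.91, 6 and 7.21 CPM at day 14, 11.9, 6.48 and 9.67 CPM at day 7 and 4.88, 3.78 and 4.19 CPM in controls, so that both irradiated groups lay above control while overlapping each other (2.18-fold at day 7, 1.12 ± 0.242, adjusted p = 0.00188). With the length and GC correction it stood at 0.68 (adjusted p = 0.0414). St3gal3, which sialylates galactose on GlcNAc, averaged 30.6 CPM at day 14, 28.5 at day 7 and 36.6 in controls (-0.36 at day 7, adjusted p = 0.0576), and passed without control library 3 (-0.54). The St6galnac enzymes, some of which put sialic acid on the first GalNAc, were scarce, with 10.7 to 15.3 CPM in their 7 gene identifiers together in any library. St6galnac5 and St6galnac6 are outside the members with a mucin-type O-glycan as main product. St6gal1, St6galnac2 and St6galnac4 stood between -0.39 and 0.04 at day 7 and were not called. The 11 uncalled sialyltransferases as a whole ranged from -0.60 (St6galnac3) to 0.20 (St8sia4).

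Among fucosyltransferases 1 of 6 tested was called higher at day 7 (16.7%, beside 15.8% of all genes). Fut9, which makes the Lewis x structure, had 14.5, 14.7 and 16.3 CPM at day 14, 18.6, 13.6 and 12.5 CPM at day 7 and 8.78, 9.51 and 13.2 CPM in controls. Day 7 and control overlapped (0.50 ± 0.183, adjusted p = 0.0442). The call was lost without control library 1 or 2 or, at day 7, library 1 or 2 or any day 14 library (adjusted p 0.0517 to 0.276), and the direction turned with the length and GC correction (-0.13, adjusted p = 0.568). The exons of Fut9 sum to 13824 bases. Fut8, of the N-glycan core, was at 0.18 (adjusted p = 0.365), and Fut2, which makes the H antigen of secretions, did not pass 1.16 CPM on average in any group. The 5 that were not called ranged from -0.02 (Fut10) to 0.53 (Fut2).

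Of 9 sulphotransferases tested 1 was called higher at day 7 (11.1%, beside 15.8% of all genes). Chst9, which sulphates terminal GalNAc and was the most abundant of them, had 88.8, 85.1 and 75.9 CPM at day 14, 88.4, 82.4 and 92.3 CPM at day 7 and 58.4, 76.5 and 68.3 CPM in controls. The day 7 libraries all exceeded the controls (0.37 ± 0.106, adjusted p = 0.0124), and the call was lost without control library 1 or, at day 7, library 3 (adjusted p 0.0511 to 0.0778). The others, most of which act on chondroitin, dermatan or keratan chains, ranged from -0.24 (Chst7) to 0.28 (Chst14), and Chst14 was called higher with the length and GC correction (0.53).

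**Figure D4:**
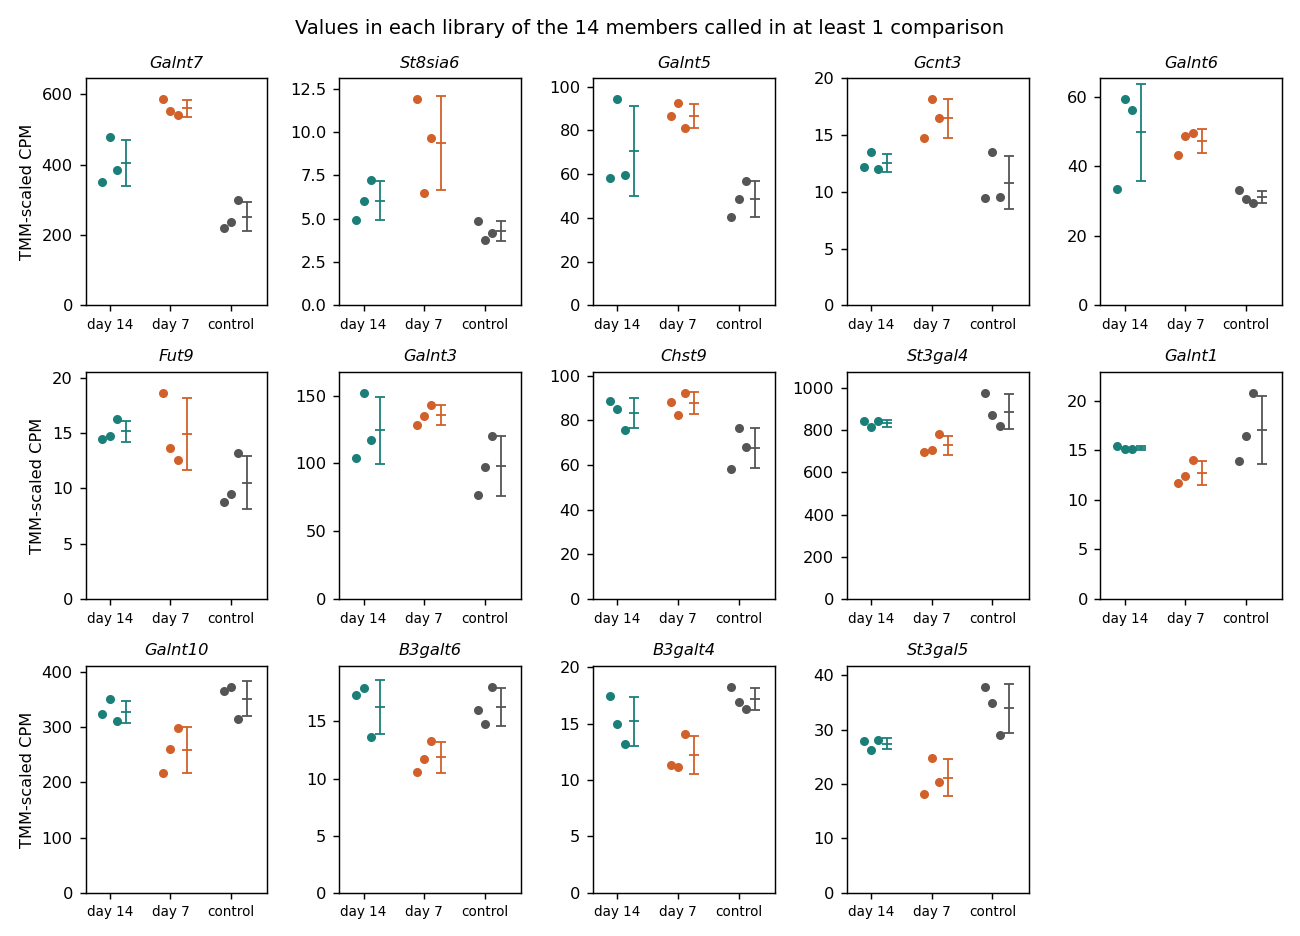
TMM-scaled CPM in each library for the 14 members called in at least 1 comparison, with the mean and SD of 3 libraries beside the points and each vertical axis starting at 0. In Galnt7 the 3 groups are separate, with day 7 highest, in Galnt10 and St3gal5 the day 7 points are the lowest, and in Fut9 and Galnt1 the day 7 and control points overlap.

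Set apart by substrate, the 24 tested members with a mucin-type O-glycan as main product held 5 higher and 2 lower at day 7. That is 20.8% and 8.33% (median 0.018). The 41 other tested members held 3 higher and 4 lower (7.32% and 9.76%, median -0.017). Among all genes tested it was 15.8% and 14.8% (median 0.021). The difference between these lists was not tested. The 22 members that were not tested were B3gnt4, B3gnt5, Gcnt4, Gcnt7, Fut1, Fut7, Galnt9, Galnt13, Galnt14, Galnt17, St6gal2, St6galnac1, St6galnac5, St8sia1, St8sia2, St8sia3, St8sia5, Chst3, Chst4, Chst5, Chst8 and Chst13. Among these, 4 had no count in any library, and the highest value was 1.91 CPM, of Chst13. Of the called members, 5 share exon sequence with a gene on the other strand (Galnt7 with AW046200, Galnt5 with Ermn, Galnt6 with Galnt6os, St3gal4 with 4930581F22Rik and St8sia6 with Gm37126), and whether reads were counted by strand is not given in the sources used here. At day 7 longer genes tended to be higher over the whole table, with a Spearman correlation of 0.422 between log2 fold change and exon length over all genes tested and 0.210 over the 65 members. The median exon length was 4418 bases in the members called higher, 3053.5 in those called lower and 5041 in those not called.

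At day 14 the GalNAc-transferases Galnt7 and Galnt6 were the members called against control. Of the 65 tested members 2 were called higher and 0 lower (3.08%), where 1.76% of all genes were called (1.13% higher and 0.632% lower). The members' median log2 fold change was 0.020, against 0.011 over all genes. Beside the count of 0 lower by edgeR, 2 members were lower and 11 higher at an unadjusted p under 0.05. The share of all genes at that unadjusted p is not reported here. DESeq2 and limma-voom also gave 0 members lower, beside 451 and 306 of all 15348 genes tested. The libraries of 11 members lay wholly above control and those of 3 wholly below, where 12.4% and 10.7% of all genes did so. Galnt7 was 1.61-fold higher than control at day 14 (0.69 ± 0.121, adjusted p = 0.0169), a call that was lost without control library 1, control library 2 or, at day 14, library 2 (adjusted p 0.0598 to 0.09). With the length and GC correction it stood at 0.47 (adjusted p = 0.0296). Galnt6 was called too (0.68 ± 0.164, adjusted p = 0.0493), on day 14 libraries of 59.4 and 56.3 CPM and 1 of 33.6 CPM beside a highest control of 33.1 CPM, and this call held in 5 of 10 other settings and was kept in 1 of 9 fits with a library left out, that without day 14 library 1.

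The other members called at day 7 were not called at day 14. Galnt5 stood at 0.54 (adjusted p = 0.102), Galnt3 at 0.34 (0.231), Chst9 at 0.30 (0.116), Gcnt3 at 0.22 (0.469), St8sia6 at 0.50 (0.249), St3gal5 at -0.31 (0.195), Galnt10 at -0.10 (0.634) and B3galt6 at -0.001 (0.993), with the adjusted p in brackets. St3gal4 stood at -0.09 (adjusted p = 0.593), B3galt4 at -0.18 (0.533) and Galnt1 at -0.16 (0.583). Fut9 stood at 0.53 (adjusted p = 0.111), and C1galt1c1 at 0.30 (adjusted p = 0.132). Without control library 3 the count at day 14 was 5 higher and 2 lower, and the share of all genes called was 12.3%. The members that passed then and not with all libraries were Gcnt1 (2.36, adjusted p = 0.0473), Fut9 (0.70, 0.0212), Galnt3 (0.49, 0.0325) and Galnt4 (0.31, 0.0426), which were higher, and St3gal3 (-0.45, 0.0214) and St3gal5 (-0.44, 0.0375), which were lower. Without control library 1, control library 2 or, at day 14, library 2 the count was 0 in both directions. Of all genes, 0.0822%, 0.0947% and 0.228% were called in these fits.

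Comparing the times directly, 0 of the 65 tested members were called higher and 1 lower at day 14 than at day 7 (1.54%), where 6.59% of all genes were called (3.72% higher and 2.87% lower). The members' median log2 fold change was 0.084, against 0.001 over all genes. The member called was Galnt7, which was 1.38-fold lower at day 14 than at day 7 (-0.47 ± 0.12, adjusted p = 0.0282), and the call was lost without any 1 of the 3 day 7 libraries or without day 14 library 1 or 3 (adjusted p 0.0568 to 0.142). Beside the count of 0 higher by edgeR, 8 members were higher and 3 lower at an unadjusted p under 0.05. The share of all genes at that unadjusted p is not reported here. DESeq2 and limma-voom each called 2 members higher, beside 773 and 904 of all 15348 genes tested. The 2 members were Galnt10, at 0.34 by edgeR (adjusted p = 0.0621), and Galnt15, at 0.93 (adjusted p = 0.0546). Both passed without control library 3 (adjusted p = 0.0385 and 0.0485), and with the length and GC correction they passed together with Galnt11 (0.45, adjusted p = 0.0271). The libraries of 13 members lay wholly above day 7 at day 14 and those of 4 wholly below, where 15.9% and 13.5% of all genes did so.

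The mucin proteins carry the chains that these enzymes build. Counts of this and the following lists at day 7 stand beside 15.8% higher and 14.8% lower among all genes tested. Of 10 tested mucin backbone genes 1 was higher and 1 lower at day 7 (10% each). Muc19, the gel-forming mucin of this gland, averaged 35703 ± 1007 CPM at day 14, 32956 ± 2504 CPM at day 7 and 42783 ± 4068 CPM in controls (-0.38 ± 0.092, adjusted p = 0.00479 at day 7), and held with any library left out. At day 14 Muc19 stood at -0.26 and was not called by edgeR (adjusted p = 0.114). DESeq2 (-0.28, adjusted p = 0.0375) and limma-voom (-0.27, 0.0306) called it lower then, as did edgeR without control library 3 (-0.37, 0.00389). With the length and GC correction 0 genes of this list were called at day 14. Cd164, a small membrane sialomucin, averaged 1320 ± 162 CPM at day 14, 1342 ± 51.4 at day 7 and 1039 ± 137 in controls (0.37 ± 0.107, adjusted p = 0.0135), a call that was lost without control library 1 or, at day 7, library 3 (adjusted p 0.0517 to 0.0964) and with the length and GC correction (0.11, adjusted p = 0.474). Muc13 and Muc20 stood at -2.48 and 0.77 and were not called (adjusted p = 0.0704 and 0.153), and both were at most 4.41 CPM. Mucl2 and Prol1 lay wholly below control at day 7 (-4.91 and -4.68) and were not called by edgeR (adjusted p = 0.162 and 0.211). DESeq2 called 4 of this list lower at day 7, Mucl2 (adjusted p = 0.00536), Prol1 (0.0349) and Muc13 (0.0174) beside Muc19. Of all 15348 genes tested it called 2492 lower.

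Genes that make the sugar donors were called in both directions. Of 24 tested genes of donor sugar synthesis 7 were higher and 5 lower at day 7 (29.2% and 20.8%, median -0.054). The length and GC correction gave 3 higher and 6 lower, as Gfpt1 (-0.09), Gnpnat1, Pgm3 and Fpgt were no longer called higher. Ugp2, which makes UDP-glucose, averaged 234 ± 17.2 CPM at day 14, 350 ± 7.45 at day 7 and 215 ± 39.9 in controls (0.70 ± 0.112, adjusted p = 0.00018), and Gfpt2, of the hexosamine pathway to UDP-GlcNAc, averaged 50.1 ± 3.42 CPM at day 14, 67.6 ± 1.2 at day 7 and 47.1 ± 2.8 in controls (0.52 ± 0.099, adjusted p = 0.000711). Both were lower at day 14 than at day 7, by 0.58 (adjusted p = 0.00507) and 0.43 (adjusted p = 0.0139) on the log2 scale, and the call of Gfpt2 between the times was lost without day 7 library 2 or, at day 14, library 1 (adjusted p 0.0586 to 0.0819). Among those called lower was an enzyme toward the sialic acid donor. Nans, the sialic acid synthase, averaged 599 ± 51.5 CPM at day 14, 481 ± 26.2 at day 7 and 650 ± 63.9 in controls (-0.43 ± 0.097, adjusted p = 0.00247). Also called lower were Nagk (-0.46), Tsta3 (-0.39) and Gmds (-0.42), the last 2 of GDP-fucose synthesis, and Gmds was lost without day 7 library 1 (adjusted p = 0.0528) and Tsta3 with the length and GC correction (-0.21, adjusted p = 0.102).

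The Slc35a to Slc35d transporters include carriers of donors into the Golgi or ER. Of 13 tested, 2 were higher and 5 lower at day 7 (15.4% and 38.5%, median -0.200), and 0 and 4 with the length and GC correction. Of the 7 called, a donor is named here for Slc35a3, Slc35c1 and Slc35b2 alone, so the count is not one of donor carriers. Slc35a3, the carrier of UDP-GlcNAc, averaged 120 ± 15.3 CPM at day 14, 138 ± 9.22 at day 7 and 83.3 ± 16.1 in controls (0.72 ± 0.123, adjusted p = 0.000361), and it was also called at day 14 (0.53, adjusted p = 0.0385). With the length and GC correction it was at 0.19 and 0.13 and was called at neither time (adjusted p = 0.149 and 0.521), and its day 14 call was lost without control library 1 or 2 or, at day 7, library 2 or any day 14 library (adjusted p 0.0517 to 0.182). Slc35a5 was higher (0.67, adjusted p = 0.00304), again not with that correction (0.21, adjusted p = 0.197). Slc35b1 (-0.55), Slc35a4 (-0.50), Slc35c2 (-0.43), the GDP-fucose carrier Slc35c1 (-0.29) and the sulphate donor carrier Slc35b2 (-0.27) were lower. The calls of Slc35c1, without control library 1 or, at day 7, library 1 or 2, and of Slc35b2, without control library 1 or 2 or any day 7 library, were lost (adjusted p up to 0.139 for both). Both were also lost with the length and GC correction (-0.16, adjusted p = 0.278 for Slc35c1 and -0.09, adjusted p = 0.527 for Slc35b2).

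Of 15 related transferases outside the symbol rule 3 were higher and 2 lower at day 7 (20% and 13.3%, median 0.155). A4gnt, which caps the O-glycans of gland mucins with GlcNAc, averaged 87.7 ± 11.8 CPM at day 14, 100.4 ± 12.9 at day 7 and 61.4 ± 6.58 in controls. It was higher at day 7 (0.71 ± 0.118, adjusted p = 0.000251) in every fit with a library left out, and higher at day 14 (0.52, adjusted p = 0.035), a call that was lost without control library 1 or 2 or, at day 7, library 2 or any day 14 library (adjusted p 0.0515 to 0.138) and with the length and GC correction (adjusted p = 0.0554). B3galnt2, which extends O-mannose, and Casd1, which acetylates sialic acid, were higher at day 7 (0.67, adjusted p = 0.00159, and 0.51, adjusted p = 0.000966). Abo, the blood group transferase, and B4galnt1, of gangliosides, were lower (-0.94, adjusted p = 0.00826, and -0.29, adjusted p = 0.0346). Abo was lost without day 7 library 2 (adjusted p = 0.0536), and B4galnt1 without control library 1 or any day 7 library (adjusted p 0.0508 to 0.139) and with the length and GC correction (-0.14, adjusted p = 0.351).

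**Figure D5:**
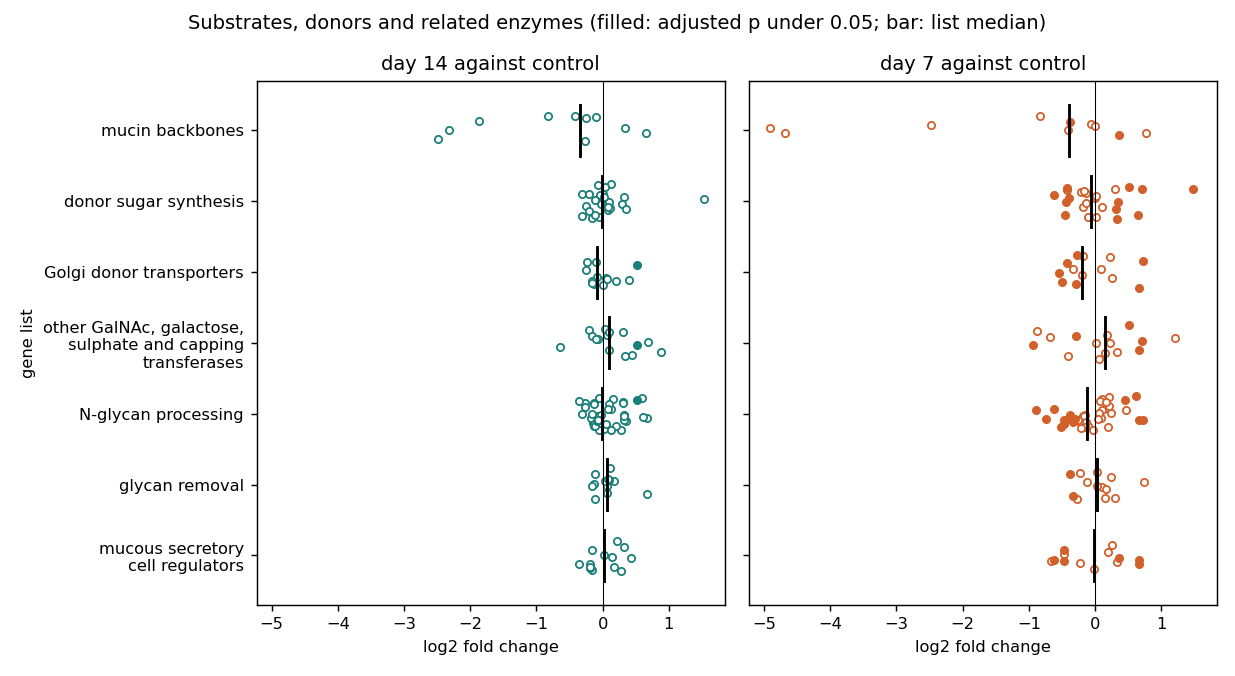
Log2 fold changes of genes in 7 related lists at day 14 against control (left) and day 7 against control (right), with 1 point per tested gene, filled where the adjusted p was under 0.05, and a bar at the list median. At day 7 filled points lie on both sides of 0 in every list but glycan removal, whose 2 are lower, and at day 14 there are 3 filled points, Slc35a3, A4gnt and Mgat5.

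Of 38 tested genes of N-glycan processing, 4 were higher and 10 lower at day 7 (10.5% and 26.3%, median -0.115), and 1 and 9 with the length and GC correction. The oligosaccharyltransferase subunits Ost4 (-0.88 ± 0.112, adjusted p = 3.31e-05), Dad1 (-0.73 ± 0.1, adjusted p = 5.17e-05) and Ostc (-0.62 ± 0.096, adjusted p = 0.000129) led, and all 3 were higher at day 14 than at day 7 (0.61 for Ost4, 0.37 for Dad1 and 0.46 for Ostc). Between the times, Ostc was lost without day 7 library 2 (adjusted p = 0.0537), and Dad1 without control library 2, any day 7 library or, at day 14, library 2 or 3 (adjusted p 0.0566 to 0.138). Ost4 averaged 81.8 ± 9.97 CPM at day 14, 53.5 ± 0.506 at day 7 and 98.8 ± 13.3 in controls. Mgat5, which adds a branch to N-glycans, was higher at day 7 (0.62 ± 0.109, adjusted p = 0.000417) and at day 14 (0.52, adjusted p = 0.0303), and the day 14 call was lost without control library 1 or 2 or any day 14 library (adjusted p 0.0744 to 0.132). The others higher at day 7 were Alg6 (0.72), Alg10b (0.67) and Man1a2 (0.45), of which Man1a2 was lost without control library 1 or 2 or, at day 7, library 1 or 2 (adjusted p 0.0664 to 0.171) and all 3 with the length and GC correction. Of 13 tested glycosidases and related genes of glycan removal 2 (15.4%) were lower at day 7, Fuca1 (-0.38, adjusted p = 0.0087, lost without day 7 library 1 at 0.0553) and the sialidase Neu1 (-0.33, adjusted p = 0.012, lost without control library 1 or, at day 7, library 1 at 0.0627 to 0.0716). In this list edgeR called 0 higher, with 2 higher at an unadjusted p under 0.05, and DESeq2 and limma-voom also called 0. After the length and GC correction 4 of this list were higher and 2 lower, and Galns (0.49, adjusted p = 0.0128) and Glb1 (0.34, adjusted p = 0.0157) were among those higher.

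Among 13 tested regulators of mucous secretory cells 3 were higher and 3 lower at day 7 (23.1% each). DESeq2 called 5 lower, Agr2 (adjusted p = 0.0159) and Xbp1 (0.0149) being the further ones, beside 2492 of all 15348 genes tested. Spdef, the ETS factor of mucous cells whose preferred sequence is marked in the Galnt7 promoter above, averaged 683 ± 72.8 CPM at day 14, 497 ± 28.3 at day 7 and 764 ± 145 in controls (-0.62 ± 0.117, adjusted p = 0.000768). It was higher at day 14 than at day 7 (0.46, adjusted p = 0.0255), a call lost without day 7 library 1 or 2 or, at day 14, library 1 or 2 (adjusted p 0.101 to 0.116). Bhlha15, a factor of secretory cells, and Sox10 were lower as well (-0.46, adjusted p = 0.00135, and -0.46, adjusted p = 0.00165), Sox10 not with the length and GC correction (-0.27, adjusted p = 0.0544). Foxa1, a factor of gland epithelium, averaged 217 ± 34.2 CPM at day 14, 284 ± 33.5 at day 7 and 179 ± 22.8 in controls (0.67 ± 0.121, adjusted p = 0.000608). Ern1, the ER stress sensor IRE1, and Mia3, which loads bulky cargo at the ER, were higher (0.67, adjusted p = 0.0165, and 0.36, adjusted p = 0.00484), and Ern1 was lost without control library 2 or, at day 7, library 1 or 2 (adjusted p 0.052 to 0.0743) and Mia3 with that correction (0.22, adjusted p = 0.0974). At day 14 against control, 19 genes of these 7 lists passed without control library 3 that did not pass with it. The share of all genes called was 12.3% in that fit and 1.76% with all libraries. Other settings gained genes of these lists too, 16 with no filter on low counts, 10 by limma-voom and 7 by DESeq2. In these 3 settings 4.75%, 5.55% and 6.79% of all genes were called.

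Marker lists of cell types moved beside these results. The 7 cycling cell markers summed to between 13 and 29.6 CPM at day 14, 79.6 and 128.5 CPM at day 7 and 7.68 and 16.1 CPM in controls. The 9 mucous acinar markers, which share Galnt12 and Gcnt3 with the members and in which Muc5b, Bpifb2 and Tff2 were below 1 CPM, summed to between 36233 and 38106 CPM at day 14, 31443 and 36534 CPM at day 7 and 39814 and 48135 CPM in controls. The 7 serous demilune markers summed to between 225626 and 251639 CPM at day 14, 207945 and 219494 CPM at day 7 and 223262 and 312386 CPM in controls. The 11 duct markers summed to between 1387 and 1427 CPM at day 14, 1306 and 1486 CPM at day 7 and 1528 and 1704 CPM in controls. The 9 macrophage markers summed to between 193 and 243 CPM at day 14, 93.9 and 134.7 CPM at day 7 and 152 and 172 CPM in controls. The 6 fibroblast markers summed to between 397 and 507 CPM at day 14, 407 and 494 CPM at day 7 and 354 and 382 CPM in controls, and the 7 endothelial markers to between 395 and 440 CPM at day 14, 417 and 500 CPM at day 7 and 336 and 380 CPM in controls. The 7 nerve and Schwann cell markers summed to between 64.9 and 71.8 CPM at day 14, 57.4 and 67.1 CPM at day 7 and 73.9 and 91.1 CPM in controls, and the 8 T and NK cell markers to between 1.97 and 4.98 CPM at day 14, 1.74 and 1.88 CPM at day 7 and 3.05 and 3.98 CPM in controls. Sums of basal, granular duct, B and plasma cell, muscle and adipocyte markers overlapped between day 7 and control. The summed level was thus higher at day 7 than in every control for cycling, fibroblast and endothelial markers. It was lower than in every control for mucous, serous, duct, macrophage, T and NK cell and nerve markers. A sum follows its most abundant genes, as the mucous sum does Muc19. Called higher and lower at day 7 were 1 and 3 of 6 tested mucous markers and 1 and 4 of 7 serous markers. For duct markers it was 2 and 4 of 11, for nerve 1 and 1 of 6 and for macrophages 0 and 3 of 9. For T and NK cells it was 0 and 0 of 3 tested. For cycling cells it was 7 and 0 of 7, for fibroblasts 3 and 0 of 6 and for endothelium 2 and 0 of 7. The part of these cell types in the changes of Galnt7 and the other members was not tested.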

How the data were processed

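RNA-seq of 9 libraries of sublingual gland was analysed. The authors deposited whole-number read counts per gene, unnormalised, and STAR, featureCounts, DESeq2 and the build mm10 are named per the submitters' processing notes, whose versions were not given in the sources used here, nor were the annotation and strand setting. Symbols and gene models came from GENCODE M21 on GRCm38, which named 54495 identifiers, and exon length is the union of a gene's exons. Of 54532 genes, edgeR's filterByExpr kept 15348. In edgeR 4.0.16 (R 4.3.3), libraries were scaled by TMM and a robust quasi-likelihood F test, two-sided, was run with all 9 libraries sharing the estimate of spread (6 residual degrees of freedom, biological coefficient of variation 16.1%). The SE is the log2 fold change over the square root of F. Within groups, chi-square over degrees of freedom ran from 9.191 to 123.7 between libraries, above sampling noise, so all counted separately. Errors of levels are SDs over 3 libraries.

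The members and the lists were chosen with earlier results of these data known. Named were members called in any comparison, the 10 most abundant per length, and from each related list up to 4 genes of smallest p and all called genes of a direction with at most 5. Mucl2 and Prol1 were named after their values were seen. Some genes are counted but not reported here by name. The lists were mucin backbones, donor sugar synthesis, Slc35a to Slc35d transporters, related transferases, N-glycan processing, glycan removal and mucous cell regulators. Marker lists of cell types were summed. Alternatives were DESeq2 1.42.0, its size factors, limma-voom (3.58.1) with sample weights, no filter on low counts, scaling with the 20 leading genes left out, a minimum of 1 CPM in 3 libraries, the 6 libraries compared alone, the replicate number as a block, a correction for exon length and GC content by smooth offsets (mgcv 1.9.3), an adjusted p under 0.01, a fold of at least 1.5 and each library left out.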

Additional observations from a re-analysis of the deposited data

Results flagged for a closer look

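The effects at the times after irradiation differed by a direct test for 1 member and 8 genes of the related lists. The test was edgeR's quasi-likelihood test of day 14 against day 7, adjusted over all genes, and the values stand here with no explanation. The member was 1 of 65 tested (1.54%), where 6.59% of all genes were called. The 8 were 5 of 38 tested N-glycan processing genes, 2 of 24 donor synthesis genes and 1 of 13 regulators (13.2%, 8.33% and 7.69%). The other related lists held 0. Galnt7 had a log2 fold change of -0.466 at day 14 against day 7 and lay below day 7 in 3 of 3 libraries (adjusted p = 0.0282). Ugp2, at -0.581, and Gfpt2, at -0.431, the donor synthesis genes that were higher at day 7, were lower at day 14 than at day 7. In the other direction, the oligosaccharyltransferase subunits Ost4, at 0.613, Ostc, at 0.462, and Dad1, at 0.371, and the lipid-linked oligosaccharide genes Alg14, at 0.418, and Alg5, at 0.380, were higher at day 14 than at day 7, as was Spdef, at 0.458. Of these 9 calls, those of Ugp2 and Ost4 were kept with any library left out. That of Galnt7 was lost in 5 of 9 such fits (adjusted p up to 0.142), that of Spdef in 4 (up to 0.116) and that of Gfpt2 in 2 (up to 0.0819). That of Ostc was lost without day 7 library 2 (adjusted p = 0.0537). Alg5, Alg14 and Dad1 were each lost in 6 of 9 such fits (adjusted p up to 0.161, 0.204 and 0.138).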

How the results depend on the processing

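Members called higher at day 7 against control numbered 8, and 4 with an adjusted p under 0.01, 5 with a fold of at least 1.5 and 4 to 7 with a library left out. Those called lower numbered 6, and 2 with an adjusted p under 0.01, 1 with a fold of at least 1.5 and 2 to 7 with a library left out. With a library left out, 19.7% to 33.7% of all genes were called at day 7, beside 30.6% with all libraries. At day 14 against control the 2 called higher became 4 with no filter, 1 with limma-voom, with the 6 libraries compared alone or with the length and GC correction, 0 with an adjusted p under 0.01 and 0 to 5 with a library left out, and the 0 lower became 0 to 2. At day 14 against day 7 the 0 called higher became 2 with no filter, DESeq2, limma-voom or the 6 libraries compared, 3 with the length and GC correction and 0 to 2 with a library left out, and the 1 called lower became 0 with an adjusted p under 0.01 or a fold of at least 1.5 and 0 to 2 with a library left out. With a library left out, 0.0822% to 12.3% of all genes were called at day 14 against control. Against day 7 it was 2.09% to 8.98%. With the length and GC correction, all genes called at day 7 were 1175 higher and 2155 lower, beside 2419 and 2273 without it, and 7 members were higher and 6 lower. The cause of these changes was not tested. Fut9 at day 7 turned to -0.133 with that correction and to -0.136 when the replicate block was added to it (adjusted p = 0.568 and 0.58).

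Deviations from group means correlated at -0.112 to 0.037 between same-numbered libraries. Between differently numbered libraries of different groups it was -0.09 to 0.158. No pairing by replicate number was seen in this measure, which cannot tell whether same-numbered libraries shared an animal or a batch. With the replicate block 7 members were higher and 4 lower at day 7, 1 higher at day 14, and 1 lower at day 14 against day 7. The block with the length and GC correction gave 1 higher at day 14 and 3 higher at day 14 against day 7. Galnt7 was called in all 3 comparisons in each of the 10 other settings of scaling, filter, tool and design. The 22 untested members read at most 1.91 CPM, and 4 of them had no count in any library. Whether more depth would let the others be tested was not examined. With 3 libraries a group, changes smaller than those called could have been missed.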
